A study of Mus musculus with 6 samples.

Results

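The mature neutrophil granule and calprotectin genes are a set of 10 genes, *S100a8*, *S100a9*, *Ltf*, *Camp*, *Ngp*, *Lcn2*, *Mmp8*, *Mmp9*, *Cd177* and *Retnlg*, taken by name from the 55421 genes counted in RNA of mouse splenic monocytes. All 10 were found by gene identifier, all passed the filter on low counts, and the lowest count of any of them in any library was 22. The libraries came from C57BL/6 mice, 3 of which carried the intact interleukin-4 receptor alpha gene (IL-4Rα+/+) and 3 of which were full-body knockouts (IL-4Rα-/-). Monocytes were isolated from spleen by negative selection on magnetic beads, each mouse gave 1 library of polyadenylated RNA, and no treatment is named in the labels for either genotype, nor is age or sex. The comparison asked whether the genes differed in level between IL-4Rα-/- and IL-4Rα+/+ monocytes. In RNA of a bulk sample, a change in the number of cells of a type and a change in RNA per cell cannot be told apart.

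Neutrophils make their granule proteins in waves while they mature in bone marrow. The azurophilic granule proteins come first, in promyelocytes, the specific granule proteins follow in myelocytes, and the gelatinase granule proteins come last, so that mature cells carry the proteins after much of the RNA has been lost. Calprotectin, the complex of S100A8 and S100A9 that binds calcium and zinc, is the most abundant protein of the neutrophil cytosol, and monocytes also make it. Proteins of the C/EBP family, C/EBPε above all, are known to drive the specific granule genes.

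The 250 bases before the RefSeq start were held for 9 of the 10 genes, on build GRCm38.p6, and *Mmp9* was the gene without an entry. They were searched on both strands for the C/EBP core TTGCNNAA or its reverse TTNNGCAA. The core was in 6 of the 9, namely *S100a9*, *Ltf*, *Ngp*, *Lcn2*, *Mmp8* and *Retnlg*, and in 9.60% of all 32851 windows of that length. The PU.1 core GAGGAA or TTCCTC was in 5 of the 9 and in 23.3% of all windows, and TATAAA or TTTATA was in 2 of the 9 and in 12.4% of all windows. A match in letters is a description and not a binding site. These 3 windows are printed because they belong to a calprotectin gene, a specific granule gene of the same profile and a granule protease of another profile. They lie at chr3:90695722-90695971 on the minus strand, chr9:111019042-111019291 on the plus strand and chr9:7558179-7558428 on the plus strand, and run 5′ to 3′ toward the start with the C/EBP core in capitals.
S100a9: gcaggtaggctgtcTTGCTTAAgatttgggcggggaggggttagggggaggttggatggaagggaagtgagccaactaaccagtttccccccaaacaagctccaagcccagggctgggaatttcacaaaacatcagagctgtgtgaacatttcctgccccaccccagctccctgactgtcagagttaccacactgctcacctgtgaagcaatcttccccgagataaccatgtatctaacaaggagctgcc
Ltf: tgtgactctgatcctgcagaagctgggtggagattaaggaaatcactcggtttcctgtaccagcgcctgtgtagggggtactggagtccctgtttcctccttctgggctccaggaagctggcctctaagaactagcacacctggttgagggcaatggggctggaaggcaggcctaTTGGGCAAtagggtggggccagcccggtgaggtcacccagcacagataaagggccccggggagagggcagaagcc
Mmp8: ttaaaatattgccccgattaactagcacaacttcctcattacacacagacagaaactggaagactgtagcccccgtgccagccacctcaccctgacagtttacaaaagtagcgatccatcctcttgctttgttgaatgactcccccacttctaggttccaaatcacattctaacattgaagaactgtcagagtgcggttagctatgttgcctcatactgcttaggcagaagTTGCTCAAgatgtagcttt
The core began 236 bases before the start in *S100a9*, 75 bases before it in *Ltf* and 19 bases before it in *Mmp8*. *Ngp* held the core at 138 and 11 bases before its start, while the windows of *S100a8*, *Camp* and *Cd177* held none. Some windows lay partly inside exons of their own gene in the Gencode annotation, so not all of their sequence is upstream. Of the 250 bases this held for 197 in *Lcn2*, 161 in *Camp*, 93 in *S100a8*, 61 in *Ngp* and 21 in *Ltf*. The *Ngp* core at 11 bases before the start lay in such an exon.

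The 6 libraries held 26807281 to 29033297 reads counted on genes, so that 1 count was 0.0344 to 0.0373 CPM, the counts scaled to a common library total. Levels are given as CPM normalized by the trimmed mean of M-values (TMM). *Il4ra*, the targeted gene, had 137, 128 and 177 CPM in IL-4Rα+/+ replicates 1, 2 and 3, and 27.9, 79.4 and 31.8 CPM in IL-4Rα-/- replicates 1, 2 and 3. The genotypes did not overlap, and IL-4Rα-/- replicate 2 kept the most *Il4ra* reads of its group. The log2 fold change of *Il4ra* was -1.67 (SE 0.41), with an adjusted p of 0.618 in edgeR's quasi-likelihood test and of 0.0111 in DESeq2. At an adjusted p under 0.15, edgeR thus did not call the targeted gene itself. Reads were counted over the whole gene, which also overlaps an antisense gene. The 12 monocyte markers summed to 9800 to 11100 CPM in IL-4Rα+/+ and 9620 to 9790 CPM in IL-4Rα-/- libraries. *Xist*, which is transcribed from the inactive X chromosome of females, had 15739, 103 and 1 counts in IL-4Rα+/+ and 1, 4 and 13512 counts in IL-4Rα-/- replicates 1, 2 and 3, so the libraries of each genotype were unlike in *Xist*. IL-4Rα-/- replicate 2 stood apart again by 6 digestive enzyme genes of the pancreas, which summed to 231 CPM there and to at most 23.8 CPM in any other library. Values without that library are therefore given with the results.

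*S100a8* and *S100a9*, the calprotectin genes, lie 22.6 kb apart on chromosome 3 with no other protein-coding gene starting between them. *S100a8* (ENSMUSG00000056054.9, GRCm38 chr3:90668978-90670035, plus strand) had 9.65, 4.45 and 18.0 CPM in IL-4Rα+/+ replicates 1, 2 and 3, and 34.2, 91.2 and 14.7 CPM in IL-4Rα-/- replicates 1, 2 and 3. IL-4Rα-/- replicates 1 and 2 lay above all IL-4Rα+/+ libraries, whereas IL-4Rα-/- replicate 3 lay below IL-4Rα+/+ replicate 3, so the genotypes overlapped. The mean was 10.7 ± 6.85 CPM (SD, n = 3) in IL-4Rα+/+ and 46.7 ± 39.7 CPM (SD, n = 3) in IL-4Rα-/- monocytes. The log2 fold change was 2.13 (SE 0.75), with an adjusted p of 0.618 in edgeR's quasi-likelihood test.

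*S100a9* (ENSMUSG00000056071.12, chr3:90692632-90695721, minus strand), whose promoter is printed above, had 9.83, 4.92 and 16.5 CPM in IL-4Rα+/+ replicates 1 to 3 and 36.2, 75.5 and 13.1 CPM in IL-4Rα-/- replicates 1 to 3. The order of the libraries was that of *S100a8*. edgeR gave a log2 fold change of 2.00 (SE 0.69) and an adjusted p of 0.618. The ratio of *S100a8* to *S100a9* counts stayed between 0.904 and 1.21 over the 6 libraries, while each gene ranged 20.5-fold and 15.4-fold from its lowest to its highest library. In IL-4Rα-/- replicate 2, *S100a8* made up 54.7% of the counts of both genes (exact Clopper-Pearson 95% interval 53.3 to 56.1%), and in IL-4Rα-/- replicate 1 it made up 48.6% (46.3 to 50.8%). These intervals, which cover counting error only, did not overlap. The ratio did not separate the genotypes (log2 ratio higher by 0.13 in IL-4Rα-/-, two-sided exact permutation p = 0.4).

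**Figure D1:**
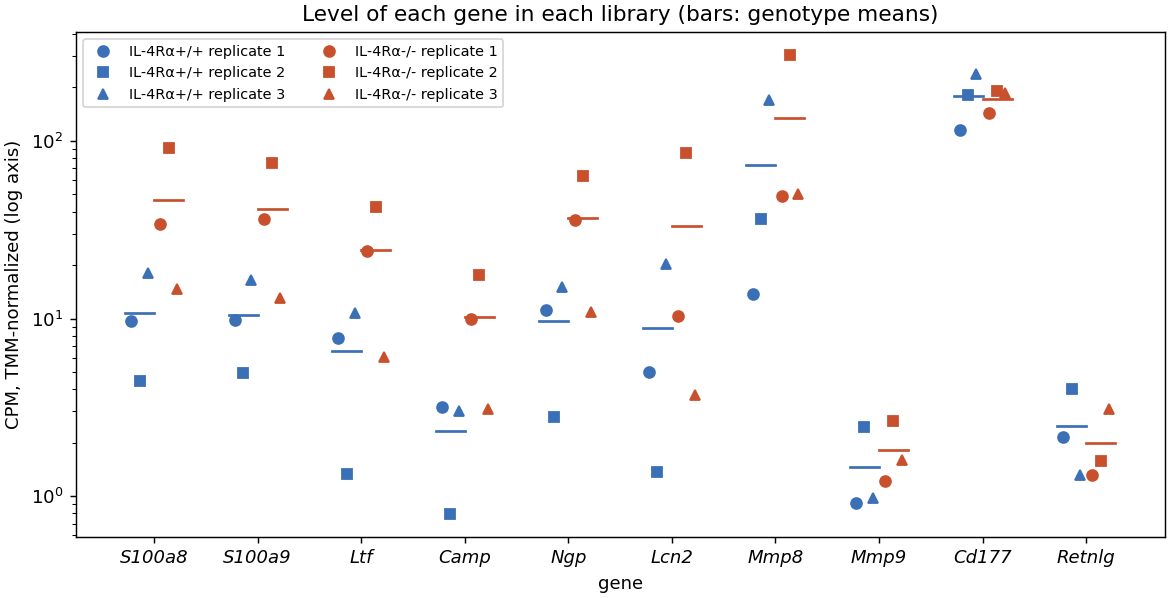
The vertical log axis is the TMM-normalized level in CPM and the horizontal axis lists the 10 genes. Each symbol is 1 library (blue IL-4Rα+/+, red IL-4Rα-/-; circle, square and triangle for replicates 1, 2 and 3) and bars are genotype means. For *S100a8*, *S100a9*, *Ltf*, *Camp* and *Ngp* the blue square is lowest and the red square highest, and the genotypes overlap in all 10 genes.

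The specific granule genes *Camp*, *Ngp* and *Ltf* lie on chromosome 9, with *Camp* and *Ngp* 570.1 kb apart and *Ngp* and *Ltf* 596.3 kb apart. *Camp* (ENSMUSG00000038357.10, chr9:109847379-109849617, minus strand) encodes the cathelicidin precursor, from which an antimicrobial peptide is cut. It had 3.16, 0.795 and 3.02 CPM in IL-4Rα+/+ replicates 1 to 3 and 9.92, 17.6 and 3.11 CPM in IL-4Rα-/- replicates 1 to 3. IL-4Rα-/- replicate 3 lay between IL-4Rα+/+ replicates 1 and 3, and the other 2 IL-4Rα-/- libraries lay above all IL-4Rα+/+ libraries. The log2 fold change was 2.13 (SE 0.73), with an adjusted p of 0.618 in edgeR and of 0.123 in DESeq2.

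*Ngp* (ENSMUSG00000032484.8, chr9:110419747-110423012, plus strand), neutrophilic granule protein, is related to the cathelicidins and cystatins. It had 11.1, 2.78 and 15.0 CPM in IL-4Rα+/+ replicates 1 to 3 and 35.9, 63.2 and 10.9 CPM in IL-4Rα-/- replicates 1 to 3. IL-4Rα-/- replicate 3 was again within the range of the IL-4Rα+/+ libraries. edgeR gave a log2 fold change of 1.93 (SE 0.77) and an adjusted p of 0.618.

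*Ltf* (ENSMUSG00000032496.7, chr9:111019271-111042767, plus strand) encodes lactoferrin, which withholds iron from microbes. It had 7.76, 1.34 and 10.7 CPM in IL-4Rα+/+ replicates 1 to 3 and 24.1, 42.6 and 6.05 CPM in IL-4Rα-/- replicates 1 to 3. Here IL-4Rα-/- replicate 3 fell below 2 of the 3 IL-4Rα+/+ libraries. The log2 fold change was 1.88 (SE 0.87), with an adjusted p of 0.62 in edgeR.

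The 3 granule genes kept near-constant proportions. The ratio of *Camp* to *Ngp* counts was 0.277 to 0.286 in 5 libraries and 0.201 in IL-4Rα+/+ replicate 3. The ratio of *Ltf* to *Ngp* counts ranged from 0.481 to 0.714, with the lowest value in IL-4Rα+/+ replicate 2, where *Ltf* had 37 and *Ngp* 77 counts. Neither ratio separated the genotypes (two-sided exact permutation p = 0.9 for *Camp* and p = 1 for *Ltf* over *Ngp*).

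Together with calprotectin these genes formed 1 profile over the 6 libraries, a grouping made after the values were seen. After each gene's log2 CPM was centred on its mean, the root mean square distance between any 2 of the 5 genes was at most 0.48, with 0.15 between *S100a8* and *S100a9*, 0.19 between *Camp* and *Ngp* and 0.20 between *Ltf* and *Ngp*. The 5 genes summed to 41.5, 14.3 and 63.3 CPM in IL-4Rα+/+ replicates 1 to 3 and to 140, 290 and 47.9 CPM in IL-4Rα-/- replicates 1 to 3. IL-4Rα-/- replicate 3 lay below IL-4Rα+/+ replicate 3, and the replicates numbered 2 marked both ends of the range.

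**Figure D2:**
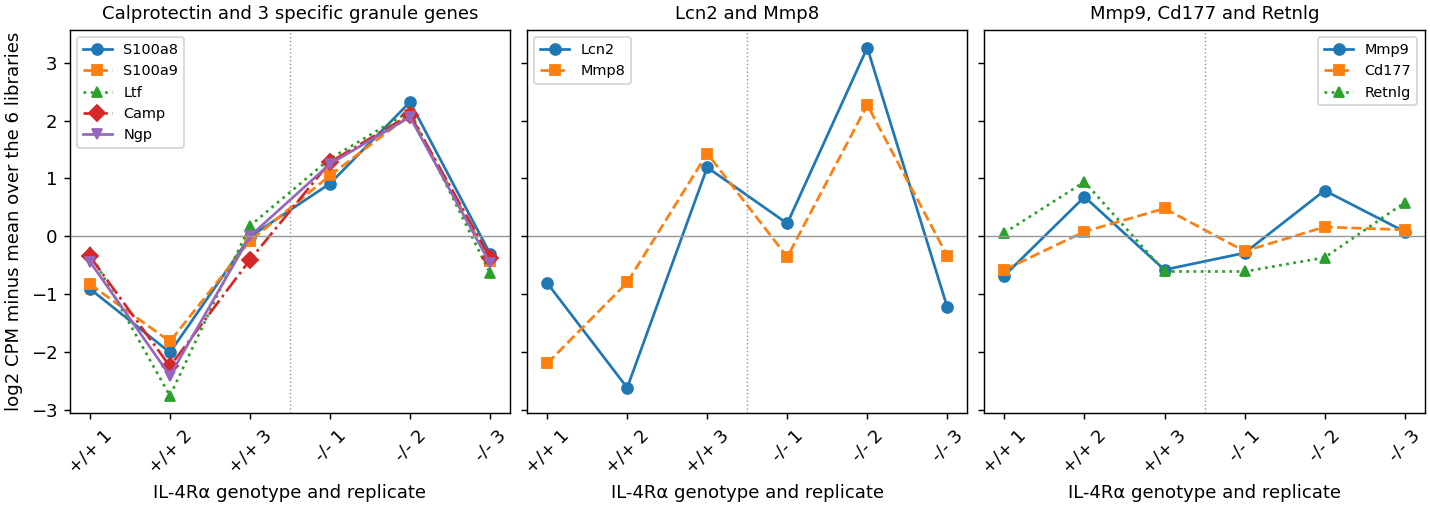
The vertical axis is log2 CPM minus the gene's mean over the 6 libraries, and the horizontal axis lists the libraries by genotype and replicate. Lines join the values of a gene and do not mark an order of libraries. The 5 genes of the left panel overlie each other, *Lcn2* and *Mmp8* in the middle panel peak in IL-4Rα+/+ replicate 3 and IL-4Rα-/- replicate 2, and the 3 genes of the right panel stay within 1 log2 unit of their means.

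*Lcn2* and *Mmp8*, both classed with the specific granule, did not share this profile. *Lcn2* (ENSMUSG00000026822.14, chr2:32384633-32388252, minus strand) encodes lipocalin 2, which binds bacterial siderophores and is also made by many cells under inflammation. It had 5.02, 1.37 and 20.2 CPM in IL-4Rα+/+ replicates 1 to 3 and 10.3, 85.0 and 3.72 CPM in IL-4Rα-/- replicates 1 to 3. The highest library of each genotype was far above the other 2, and the ratio of *Lcn2* to *Ngp* counts was 1.35 and 1.34 in those 2 libraries against 0.287 to 0.494 in the other 4. edgeR gave a log2 fold change of 1.90 (SE 1.31) and an adjusted p of 0.684.

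*Mmp8* (ENSMUSG00000005800.3, chr9:7558456-7568485, plus strand) encodes neutrophil collagenase. It had 13.7, 36.3 and 170 CPM in IL-4Rα+/+ replicates 1 to 3 and 49.1, 304 and 50 CPM in IL-4Rα-/- replicates 1 to 3. Its ratio to *Ngp* counts ran from 1.24 in IL-4Rα+/+ replicate 1 to 13 in IL-4Rα+/+ replicate 2, a 10.5-fold range. The lowest library was thus IL-4Rα+/+ replicate 1 for *Mmp8* and IL-4Rα+/+ replicate 2 for *Ngp*. The log2 fold change was 0.87 (SE 1.07), with an adjusted p of 0.801 in edgeR. Without IL-4Rα-/- replicate 2 the log2 fold changes turned negative, to -0.34 for *Lcn2* and -0.57 for *Mmp8*.

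**Figure D3:**
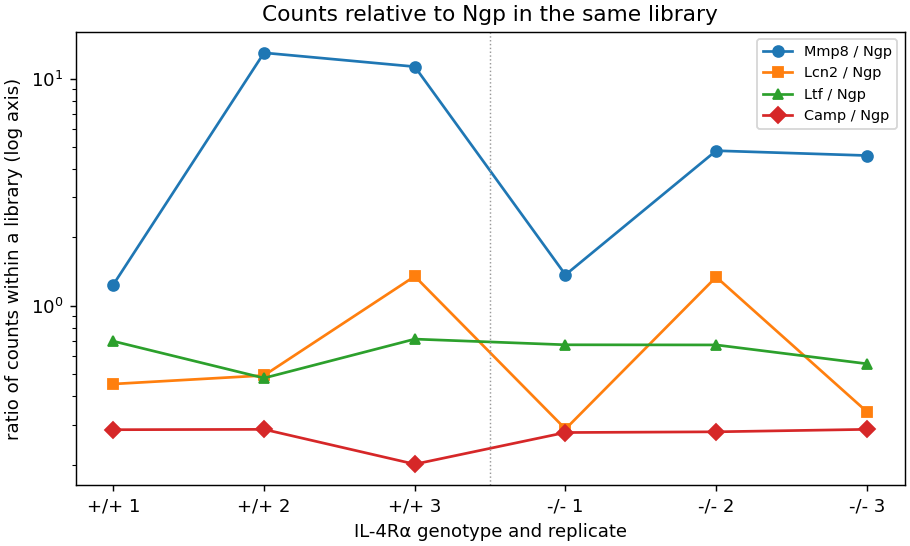
The vertical log axis is the ratio of a gene's counts to *Ngp* counts in the same library, and the horizontal axis lists the libraries. *Camp* and *Ltf* stay level, within 1.42-fold and 1.48-fold, whereas *Lcn2* ranges 4.70-fold and *Mmp8* 10.5-fold.

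*Chil3*, a chitinase-like protein gene of monocytes, macrophages and neutrophils, was 1 of the 2 highest genes of the list of other specific and gelatinase granule genes. It had 121, 391 and 1830 CPM in IL-4Rα+/+ replicates 1 to 3 and 487, 2430 and 291 CPM in IL-4Rα-/- replicates 1 to 3, also highest in IL-4Rα+/+ replicate 3 and IL-4Rα-/- replicate 2. The ratio of *Mmp8* to *Chil3* counts, a pair set side by side after the values were seen, was 0.0928 to 0.172. Monocyte markers ran both ways over the libraries at the ends of *Mmp8*, IL-4Rα+/+ replicate 1 and IL-4Rα-/- replicate 2. *Ccr2* and *F13a1*, markers of inflammatory monocytes chosen after their values were seen, had 380 and 325 CPM in the former and 2010 and 2120 CPM in the latter. *Csf1r* and *Ace*, the highest of the monocyte list, had 3090 and 2770 CPM in the former and 2230 and 709 CPM in the latter. Of the other markers listed, *Ly6c2*, *Fcgr1* and *Cd14* were also higher in IL-4Rα-/- replicate 2, and *Cx3cr1*, *Nr4a1*, *Fcgr4*, *Treml4* and *Spn* were lower. IL-4Rα+/+ replicate 3, the next highest in *Mmp8*, had 1670 CPM of *Ccr2*, 1850 of *F13a1*, 2420 of *Csf1r* and 1090 of *Ace*. The cause of these differences was not tested.

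*Mmp9* (ENSMUSG00000017737.2, chr2:164940780-164955850, plus strand) encodes gelatinase B, the defining enzyme of gelatinase granules. It was scarce, with 0.913, 2.46 and 0.981 CPM in IL-4Rα+/+ replicates 1 to 3 and 1.21, 2.66 and 1.59 CPM in IL-4Rα-/- replicates 1 to 3, that is 26 to 76 counts. Replicate 2 was the highest of each genotype. edgeR gave a log2 fold change of 0.33 (SE 0.50) and an adjusted p of 0.836.

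*Cd177* (ENSMUSG00000052212.6, chr7:24743983-24760311, minus strand) encodes a surface glycoprotein that is stored in specific granules and binds PECAM1. It had 115, 181 and 239 CPM in IL-4Rα+/+ replicates 1 to 3 and 143, 191 and 185 CPM in IL-4Rα-/- replicates 1 to 3. It varied least of the 10 genes, 2.08-fold over the 6 libraries, and did not track calprotectin. The log2 fold change was -0.04 (SE 0.26), with an adjusted p of 0.963 in edgeR.

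*Retnlg* (ENSMUSG00000022651.6, chr16:48872621-48874496, plus strand) encodes resistin-like gamma, a secreted protein of mature neutrophils. It had 2.14, 4.01 and 1.32 CPM in IL-4Rα+/+ replicates 1 to 3 and 1.32, 1.57 and 3.11 CPM in IL-4Rα-/- replicates 1 to 3. It was highest in IL-4Rα+/+ replicate 2, the library lowest in calprotectin. edgeR gave a log2 fold change of -0.31 (SE 0.50) and an adjusted p of 0.845.

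Levels can be compared between genes only per length, so counts were also divided by the length of the union of each gene's exons and given in RPKM. By mean log2 RPKM over the 6 libraries the order was *Cd177*, *S100a9*, *S100a8*, *Mmp8*, *Ngp*, *Camp*, *Retnlg*, *Lcn2*, *Ltf* and *Mmp9*. *Cd177* had 61.8 ± 15.1 RPKM (SD, n = 6), *S100a9* 49.8 ± 50.8 and *Mmp9* 0.462 ± 0.214. Of neighbours in that order, *S100a9* was above *S100a8* and *Ngp* above *Camp* in all 6 libraries, by a log2 RPKM of 0.36 (SD 0.16) and 1.19 (SD 0.21). *Ltf* was above *Mmp9* in 5 of 6 libraries, and the other 6 neighbouring pairs changed places in 2 or 3 of the 6 libraries. With the longest transcript in place of the exon union, 5 of the 10 genes kept their rank.

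Read over all 10 genes, 8 had a higher and 2 a lower fitted level in IL-4Rα-/- monocytes, with a median log2 fold change of 1.89 against 0.008 over the 13849 genes tested, of which 51.5% were higher. Differences that passed the threshold, an adjusted p under 0.15, were found for 0 of the 10 in edgeR, as for 0% of all genes, *Il4ra* included. DESeq2 called 1, *Camp*, where it called 0.571% of the 14003 genes it gave an adjusted p. At an unadjusted p under 0.05 in edgeR, 4 of the 10 were higher (*S100a8*, *S100a9*, *Camp* and *Ngp*), beside 3.72% of all genes, and 0 were lower, beside 4.37%. The genotypes were free of overlap with IL-4Rα-/- higher for 0 of the 10 and for 7.63% of all genes. Exact permutation p-values of single genes ran from 0.2 to 1, where 3 against 3 allows none below 0.10. Without IL-4Rα-/- replicate 2 the median log2 fold change was 0.57 and 0 of the 10 had an unadjusted p under 0.05 in edgeR. Without IL-4Rα+/+ replicate 2, the library lowest in the 5 genes, it was 1.39, again with 0 of the 10.

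**Figure D4:**
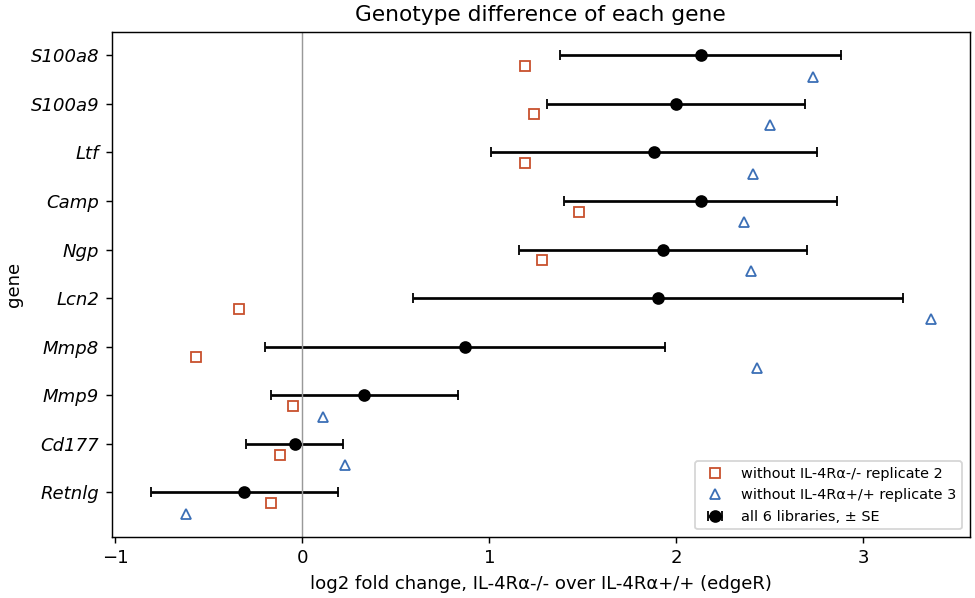
The horizontal axis is the log2 fold change of IL-4Rα-/- over IL-4Rα+/+ from edgeR for each gene on the vertical axis. Black points with bars are the fit of all 6 libraries ± SE, red squares the fit without IL-4Rα-/- replicate 2 and blue triangles the fit without IL-4Rα+/+ replicate 3. *S100a8*, *S100a9*, *Ltf*, *Camp* and *Ngp* stay at or above 1.19, whereas *Lcn2*, *Mmp8* and *Mmp9* pass below 0 without IL-4Rα-/- replicate 2.

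Most of the genes spread widely between mice. The highest library exceeded the lowest at least 5-fold for 7 of the 10 genes, beside 6.31% of all genes, whose median was 1.47-fold. Such a spread was not particular to the set, since all 6 tested genes of the azurophilic granule list (5.51-fold for *Fcnb* to 15.7-fold for *Mpo*) and all 6 erythroid markers also exceeded 5-fold. *Lcn2* had the widest range of the 10, 61.9-fold, followed by *Ltf* with 31.8-fold. The 10 genes made up between 0.0176% and 0.0861% of the counts of a library.

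Around the 10 genes, the early azurophilic granule genes followed the 5-gene profile in part. Of 8 listed genes 6 were tested, and all 6 had a higher fitted level in IL-4Rα-/- monocytes (median log2 fold change 1.15), with 0 at an unadjusted p under 0.05 in edgeR and 0 called by DESeq2. *Mpo*, myeloperoxidase, had 9.02, 1.34 and 12.0 CPM in IL-4Rα+/+ replicates 1 to 3 and 16.1, 21 and 10.9 CPM in IL-4Rα-/- replicates 1 to 3. *Elane*, neutrophil elastase, had 6.07, 1.08 and 5.70 CPM against 9.06, 11 and 7.27 CPM. IL-4Rα+/+ replicate 2 was lowest and IL-4Rα-/- replicate 2 highest in both, and the genotypes did not overlap for *Elane*, whose log2 fold change was 1.08 (SE 0.57) with an adjusted p of 0.638 in edgeR. *Prtn3*, proteinase 3, was highest of the list at 45.1 CPM in IL-4Rα-/- replicate 2.

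Of the markers listed for mature neutrophils, *Ly6g* and *Stfa2l1* were at or near 0, *Cxcr2* was scarce and *Csf3r* had 299 to 438 CPM. *Ly6g*, the surface marker by which mouse neutrophils are sorted, had 0, 2 and 2 counts in IL-4Rα+/+ and 6, 9 and 1 counts in IL-4Rα-/- replicates 1 to 3, and *Stfa2l1* had at most 4 counts. Of 22 listed surface and cytosol genes, 6 had at most 3 counts in every library (*Mrgpra2a*, *Mrgpra2b*, *Stfa1*, *Stfa2*, *Stfa3* and *BC100530*). Among the 22, 14 were tested, with 11 higher and 3 lower in IL-4Rα-/- monocytes, where 51.5% of all genes were higher. At an unadjusted p under 0.05 in edgeR, 2 were higher and 0 lower, beside 3.72% and 4.37% of all genes. *Cxcr2*, the chemokine receptor of neutrophils, had 1.69, 1.70 and 1.43 CPM in IL-4Rα+/+ and 2.07, 5.07 and 2.97 CPM in IL-4Rα-/- replicates 1 to 3, without overlap (log2 fold change 1.07, SE 0.36, adjusted p 0.618 in edgeR). *Hdc*, histidine decarboxylase of granulocytes and mast cells, did not overlap either, and its log2 fold change was 0.96 (SE 0.23) with an adjusted p of 0.618 in edgeR and of 0.0566 in DESeq2. *Csf3r*, the receptor for granulocyte colony-stimulating factor, and *Anxa1* were the highest of the list, and their log2 fold changes were 0.01 (SE 0.16) and 0.25 (SE 0.31). At this depth *Ly6g* was hardly detectable, while *Csf3r* was among the 2 highest of its list. Which cells the RNA of the granule genes came from was not tested.

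The other granule genes, the factors and the partners gave no call in edgeR or DESeq2. Of 12 other specific and gelatinase granule genes 10 were tested, 5 higher and 5 lower with a median log2 fold change of -0.01 and 0 at an unadjusted p under 0.05 in edgeR, and *Cybb*, the NADPH oxidase subunit, was the highest at 1890 to 2470 CPM. The 8 granulocyte transcription factors split into 4 higher and 4 lower with 0 at an unadjusted p under 0.05, and *Spi1*, which encodes PU.1, stayed at 596 to 665 CPM and *Cebpb* at 484 to 764 CPM. Of 9 partners and receptors 7 were tested, 6 higher and 1 lower with 0 at an unadjusted p under 0.05. *Pecam1*, which CD177 binds, had 64.5 to 117 CPM, and *Timp2*, an inhibitor of metalloproteinases, had 67.2 to 76.2 CPM in IL-4Rα+/+ and 76.9 to 107 CPM in IL-4Rα-/- libraries, without overlap. The 6 other S100 genes were all higher with a median log2 fold change of 0.36, and *S100a1* alone had an unadjusted p under 0.05 (log2 fold change 0.39, SE 0.15, adjusted p 0.618 in edgeR). *S100a6* and *S100a10*, the highest of them, had log2 fold changes of 0.33 (SE 0.31) and 0.57 (SE 0.35).

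Markers of other cells also differed in level between libraries, and their part in the results above was not tested. edgeR called 0 genes of these lists at an adjusted p under 0.15, and DESeq2 called 2 basophil and mast cell markers (*Ms4a2*, adjusted p 0.0998, and *Cpa3*, adjusted p 0.101) and 2 erythroid markers (*Hba-a1*, adjusted p 0.0424, and *Slc4a1*, adjusted p 0.0471). Basophil and mast cell markers summed to 20.9, 7.88 and 23.2 CPM in IL-4Rα+/+ and 63.0, 30.5 and 47.2 CPM in IL-4Rα-/- replicates 1 to 3, with 6 of 6 higher and at an unadjusted p under 0.05 in edgeR. The erythroid markers summed to 44.1 to 93.6 CPM against 121 to 307 CPM (5 of 6 genes at that p), the eosinophil markers to 73.4 to 74.7 CPM against 102 to 161 CPM (2 of 6), and the red pulp macrophage markers to 2240 to 2650 CPM against 3120 to 4860 CPM (4 of 6). In none of these 4 lists was IL-4Rα-/- replicate 2 the highest library, whereas it was for all 5 genes of the calprotectin profile. The basophil and mast cell sum was lowest in IL-4Rα+/+ replicate 2, as was the sum of the 5 genes. B cell markers summed to 22.6 to 68.2 CPM against 19.3 to 136 CPM and T cell markers to 43.3 to 109 CPM against 40.2 to 101 CPM, with 0 of 6 at an unadjusted p under 0.05 in each. The pancreatic genes, 23.8, 0.361 and 0.113 CPM in IL-4Rα+/+ and 13.3, 231 and 0.135 CPM in IL-4Rα-/- replicates 1 to 3, shared with the 5 genes their highest library but not their lowest. In the 4 libraries with few *Xist* counts the median log2 fold change of the 10 genes was 2.26, with 0 genes called by edgeR. They were IL-4Rα+/+ replicates 2 and 3 and IL-4Rα-/- replicates 1 and 2, the lowest and highest libraries of the 5 genes among them. IL-4Rα-/- replicate 3, which lay below IL-4Rα+/+ replicate 3 in the sum of the 5 genes, was left out. Any part of sex in the difference was not tested.

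**Figure D5:**
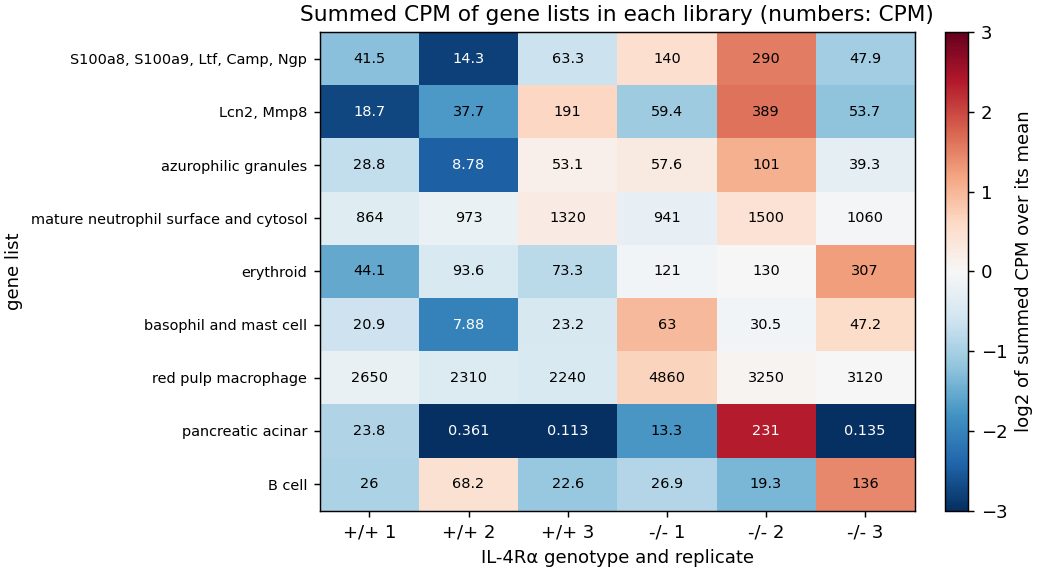
Each cell is the summed CPM of the genes named on the vertical axis in the library on the horizontal axis, printed as a number, and the color is its log2 ratio to the mean of the row, cut at 3. The calprotectin profile (14.3 to 290 CPM) and the azurophilic granules (8.78 to 101 CPM) are lowest in IL-4Rα+/+ replicate 2 and highest in IL-4Rα-/- replicate 2.

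The genes outside the set with the profile most like its mean, by root mean square distance of centred log2 CPM over the 6 libraries, were *Ms4a3* (0.17), *Usp2* (0.23), *Fcnb* (0.24), *Map2k3os* (0.26), *Spp1* (0.30), *B230216N24Rik* (0.33), *Nrg1* (0.36), *Nphp4* (0.37), *Car5b* (0.38) and *Dcbld1* (0.39). *Ms4a3*, a gene of granulocyte-monocyte progenitors, had 0.456, 0.217 and 0.717 CPM in IL-4Rα+/+ and 0.856, 2.69 and 0.439 CPM in IL-4Rα-/- replicates 1 to 3. *Fcnb*, ficolin B, had 3.16, 2.10 and 6.68 CPM against 6.03, 11.5 and 4.26 CPM. Both stood in the azurophilic granule list as well, and of the other 8 near genes all but *Nrg1*, at up to 12.2 CPM, were under 5 CPM in every library.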

How the data were processed

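RNA-seq counts of splenic monocytes from 6 mice were used, with 3 mice per genotype. The authors aligned the single-end reads of 75 bp to GRCm38 with STAR 2.6.1a and deposited raw counts per gene, without normalization. Per the labels, bcl2fastq 2.19.1.403, RSEM and DESeq2 1.22.2 were also used. Which strand column was kept is not given in the sources used here. STAR's summary lines (21.1 to 22.8% of reads) were left out. Gene symbols and positions were read from Gencode annotation of the same build, in which 55240 of 55421 identifiers were found.

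Counts were filtered with filterByExpr (minimum count 10), TMM-normalized and tested for genotype with edgeR 4.0.16 (R 4.3.3), and p-values were adjusted by Benjamini-Hochberg over 13849 genes and a threshold of 0.15. DESeq2 1.42.0 was the main alternative. Log2 CPM used a prior count of 2. For single genes, two-sided exact permutation tests used all 20 labelings. The fit was tested on simulated data.

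The genes named were the 10 of the set, *Il4ra*, *Ly6g*, *Mpo* and *Elane*, from each list those with an unadjusted p under 0.05 (at most 4) and the 2 highest, and the 10 nearest profiles. For the lists of other cells, sums and counts are given, with single genes where a result turns on them. The members and lists were chosen with earlier results of these data known. Alternatives changed the scaling, test, filter, threshold and library size, added a replicate block or left out each mouse; the 4 libraries with few *Xist* counts were chosen after seeing the data.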

Additional observations from a re-analysis of the deposited data

How the results depend on the processing

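Of 140 values of the 10 genes under alternatives, 132 kept their direction and their side of the threshold. The stricter threshold reused the main fit. The library size without the 10 genes, haemoglobin and immunoglobulin genes gave the same fitted values as the main fit. The values counted under these alternatives therefore add nothing to the agreement. DESeq2 called 80 genes in all and 1 of the 10, *Camp*; edgeR called 0 genes under all other alternatives run, with 627 to 1724 genes at an unadjusted p under 0.05, and the adjusted p of *Camp* ran from 0.123 to 0.901 over the alternatives. The median log2 fold change was 0.57 to 2.41 when 1 mouse was left out, lowest without IL-4Rα-/- replicate 2. The directions turned for *Lcn2* (-0.34), *Mmp8* (-0.57) and *Mmp9* (-0.05) without IL-4Rα-/- replicate 2, for *Retnlg* (0.21) without IL-4Rα+/+ replicate 2, and for *Cd177* without IL-4Rα+/+ replicate 3 (0.23) or IL-4Rα-/- replicate 1 (0.07). The cause was not tested. Leaving out 1 mouse gave log2 fold changes of 1.19 to 2.73 for *S100a8*, 1.24 to 2.5 for *S100a9*, 1.19 to 2.41 for *Ltf*, 1.48 to 2.57 for *Camp*, 1.28 to 2.40 for *Ngp*, -0.34 to 3.36 for *Lcn2*, -0.57 to 2.43 for *Mmp8*, -0.05 to 0.94 for *Mmp9*, -0.28 to 0.23 for *Cd177* and -0.78 to 0.21 for *Retnlg*. The number of the 10 with an unadjusted p under 0.05 in edgeR, 4 with all mice, was 0 to 5 without 1 mouse.

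The main fit did not use the replicate numbers to pair the libraries. Same-numbered libraries had correlations of their deviations of 0.185, -0.271 and -0.296. With so few mice, these values cannot decide whether the numbers mark pairs. With the replicate block, 0 of the 10 genes had an unadjusted p under 0.05, the median log2 fold change was 1.51 and *Cd177* turned to 0.01. With 22 to 90 *Camp* counts in IL-4Rα+/+ libraries, depth limits that gene most among the 5 of its profile.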

Other observations

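Profiles nearest to the 5 genes *S100a8*, *S100a9*, *Ltf*, *Camp* and *Ngp*, a grouping made after the values were seen, were those of *Prtn3* (root mean square distance 0.51), *Ms4a3* (0.52), *Ighv2-9* (0.53), *Ctsg* (0.59) and *Mpo* (0.61), of which 4 are genes of the azurophilic granule list. *Ctsg*, cathepsin G, had 3.51, 1.05 and 5.66 CPM in IL-4Rα+/+ and 7.49, 10 and 5.88 CPM in IL-4Rα-/- replicates 1 to 3. Its genotypes did not overlap, and its log2 fold change was 1.20 (SE 0.55), with an adjusted p of 0.62 in edgeR.

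Among the profiles near to those of *Lcn2* and *Mmp8*, likewise grouped after the values were seen, were those of *Mmp19* (0.33), *Il1r2* (0.40), *Clmn* (0.46) and *Abca13* (0.47). *Mmp19*, another matrix metalloproteinase gene, had 13.6, 16.7 and 144 CPM in IL-4Rα+/+ and 30.1, 242 and 29.8 CPM in IL-4Rα-/- replicates 1 to 3. *Il1r2*, the decoy receptor for interleukin-1, had 0.702, 0.795 and 4.64 CPM against 1.68, 26.8 and 1.72 CPM. *Lrg1*, a secreted glycoprotein gene of the mature neutrophil list, had 0.386, 0.253 and 8.90 CPM against 0.999, 60.3 and 0.304 CPM. All 3 were highest in IL-4Rα+/+ replicate 3 and IL-4Rα-/- replicate 2. Their log2 fold changes were 0.79 (SE 1.19) for *Mmp19* and 2.30 (SE 1.31) for *Il1r2*, with adjusted p-values of 0.833 and 0.646 in edgeR.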
